A study of Schizosaccharomyces pombe with 9 samples.

Results

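Among the RNA contacts recorded with the fission yeast histone deacetylase Clr3, 245 positions lay in coding sequences at bases where a separate reference library was thin. A position was taken when it lay on the sense strand in the coding sequence (CDS) of a protein-coding gene, carried at least 2 T-to-C conversions in a crosslinked library, and had a reference depth of at most 100 reads. Crosslinked replicate 1 held 199 such positions and crosslinked replicate 2 held 49, of which 3 were shared. They are part of 11167 positions called in the crosslinked libraries together, 7800 of them in coding sequences on the sense strand. They were compared with the 3025 CDS positions that also carried at least 2 conversions but had a higher reference depth (2053 and 1006 in the replicates). The positions were chosen by the number of conversions and the reference depth, so both are given as description only.

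The libraries came from Schizosaccharomyces pombe and PAR-CLIP, in which cells take up 4-thiouracil and light at 365 nm joins the labelled RNA to bound protein. Clr3 was recovered through its tag, and a joined base is read as C in place of T, so that a conversion marks the contact. There were 2 crosslinked libraries and 1 control titled as not crosslinked, all of 1 genotype: mating type h+ with the tagged allele clr3-3HA-TAP::kan MX, the reporter imr1R(NcoI)::ura4+, and the alleles ade6-M216, leu1-32 and ura4-delta18. Cells had grown at 30 °C with 100 µM 4-thiouracil, 10 mg/l uracil and 4% glucose and then for 4 h with 900 µM more, before irradiation at 12 J/cm2 and partial digestion with RNase T1. The control carries the same protocol text, and only the title and the design text mark it as a control. Cells without the tag were not sampled by PAR-CLIP here, and contacts of Clr3 cannot be told apart from those of other proteins recovered with it.

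Clr3 is the catalytic subunit of SHREC, a complex that removes acetyl groups from histones and helps silence heterochromatin. Messenger RNAs of fission yeast differ widely in abundance. Those of ribosomal proteins are short and among the most abundant, whereas those of transcription factors, chromatin remodellers and kinases are often long and scarce. The coverage of any one base by a reference library depends on the abundance of the transcript and also on the place of the base within it.

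The sequences shown are of 3 sets: start codons, where low-depth positions were many times as frequent as among higher-depth positions, the recurrent positions, and a gene with several positions. They are printed 5′ to 3′ on the coding strand with 14 bases on either side of the converted base, which is the capital T. In the first 5, from mRNAs of ribosomal proteins and of the translation factor eIF5A (tif512), the capital is the T of the ATG.
rps002: tgcacgcaacaaaaTggcagaatccatag
tif512: gcataaaccaacaaTggcagaagaagaac
rpl4101: atccataaccacaaTgcgtgataagtgga
rpl3703: agcagtttcaaaaaTgactaagggtactc
ubi3: tactttgctgacgaTgcagatctttgtaa
The next 3 are the positions called in both crosslinked libraries, all within 33 bases of their start codons.
mgs1: tgttcaatgtcctgTttgcgcgaaaacag
rpl4302: aaggttggtgtcacTggcaagtacggtgt
ubi5: ttcgtcaaaaccctTacgggtaagacgat
The last 3 are from clr5, which encodes a silencing factor and held 3 of the positions in crosslinked replicate 2.
clr5 368: taagagattagcctTaaagcgtcctcctc
clr5 783: gctcaacatgccgtTaacggtcagccaca
clr5 1593: gtccgttcatctcgTgatttatctgttca
The numbers after clr5 are the places of the capitals in its CDS, counted from 1 at the A of the start codon. On chromosome I the converted bases are 4037585 in rps002, 5402232 in rpl4101, 1275536 in rpl3703, 3238361 in ubi3, 4118942 in mgs1, 3108857 in ubi5, and 5429370, 5429785 and 5430595 in clr5. On chromosome II they are 2759233 in tif512 and 1513707 in rpl4302. Coordinates are those of the authors' tables in build ASM294v2, and all the genes printed here lie on the minus strand except rpl3703 and clr5.

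Low reference depth was uncommon among coding positions with repeated conversions. It applied to 199 of 2252 CDS positions with at least 2 conversions in crosslinked replicate 1 (8.84%, Wilson 95% interval 7.73 to 10.1) and to 49 of 1055 in crosslinked replicate 2 (4.64%, 3.53 to 6.09), a mean of 6.74% ± 2.96 (SD, n = 2). Without crosslinking it applied to 4 of 57 (7.02%, 2.76 to 16.7), a share whose interval covers those of both crosslinked libraries. Among CDS positions with 1 conversion, all of which were 1 read of 3, the shares were 58.1% of 2223 and 42.5% of 2313. With exactly 2 conversions they were 12.4% and 5.63%, and with 3 or 4 conversions 2.39% and 2.02%. At 5 or more conversions 1 of 154 positions and 1 of 43 remained, in rpl44 and mgs1. Low-depth positions were thus mostly those with the fewest conversions that the rule allows: 183 of 199 and 43 of 49 had exactly 2. So did most higher-depth positions, 1288 of 2053 and 721 of 1006.

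Fewer reads lay over these positions, and a larger part of them was converted. The median was 14 reads (range 3 to 426) and 9 reads (3 to 87) in the replicates, against 51 and 45 at the higher-depth positions. The median conversion was 14.3% and 22.2% of reads (mean 18.3% ± 5.61, SD, n = 2), against 4.08% and 4.55% (4.31% ± 0.328). Both libraries showed the same order. Among positions with at least 20 reads the mean of the medians fell to 5.0%, against 3.75% at higher depth. That limit caps the percentage of a position with 2 conversions, so the fall follows in part from the limit itself. When only positions with exactly 2 conversions were set side by side, the median reads were 12 and 9 against 35 and 34, and the median conversion was 19.4% ± 3.93 against 5.80% ± 0.119. At a fixed number of conversions, the percentage is a restatement of the reads. Reads and conversions come from the same library, and reads rise with the abundance of the transcript, which also bears on the reference depth. The parts of abundance and of contact in these values were not tested.

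**Figure D1:**
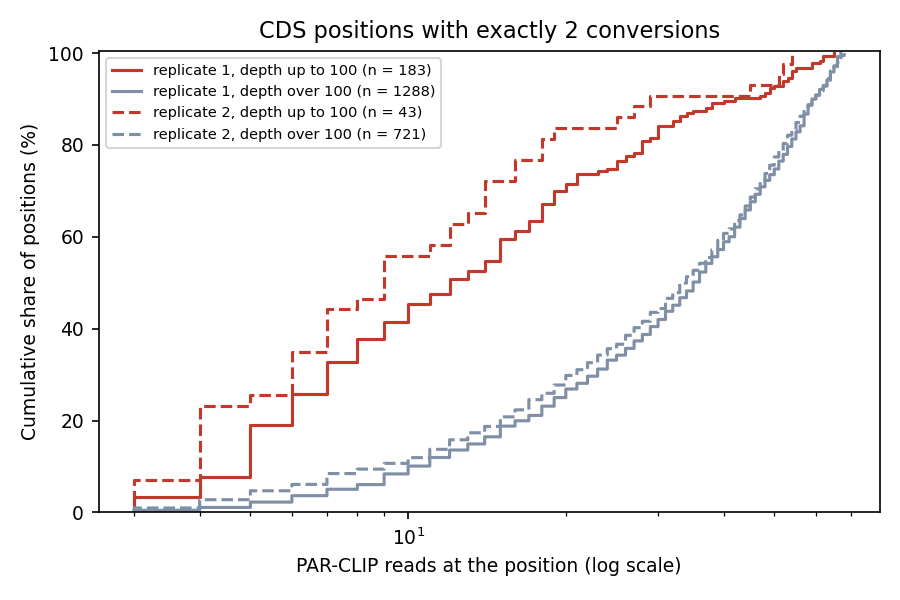
Cumulative share of CDS positions with exactly 2 conversions (vertical axis, %) against the PAR-CLIP reads over them (horizontal axis, log scale), for reference depths up to 100 (red) and over 100 (grey) in crosslinked replicate 1 (solid) and 2 (dashed). The red curves rise at fewer reads, with medians of 12 and 9 against 35 and 34.

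The limit of 100 cut through a continuous range. The 13 positions with a depth of 96 to 100 had a median of 12 reads and 16.7% conversion, and the 21 above the limit with a depth of up to 105 had 11 reads and 20%. Positions at the limit included that in rps2402, which encodes a protein of the small ribosomal subunit (3 of 125 reads converted). The alpha-glucan synthase gene ags1 (2 of 40) and the transcription factor gene reb1 (2 of 6) stood there too, among others. Those at the next whole number above the limit included trm732 (2 of 7), pld1 (2 of 8) and tnr3 (2 of 5).

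The positions fell in 207 genes of 5113, or 4.05%, against 984 genes (19.2%) with a higher-depth position. Single positions were the rule, with 176 genes holding 1 and 31 holding more. Of the 207 genes, 73 (35.3%) also held a higher-depth position. Their coding sequences were long, with a median of 2097 nt against 1302 nt for genes with higher-depth positions and 1137 nt for all coding genes. Each position was set beside the other called CDS positions of its gene, and 2 kinds were told apart by the ratio. In 220 cases the gene had such another position. The median depth was 66 reads at the position itself and 101.75 at the others (the median over positions of each gene's own median). In 109 of these 220 cases the others were also at or under 100. The remaining 25 positions were the only called CDS position of their gene, with a median depth of 53.

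**Figure D2:**
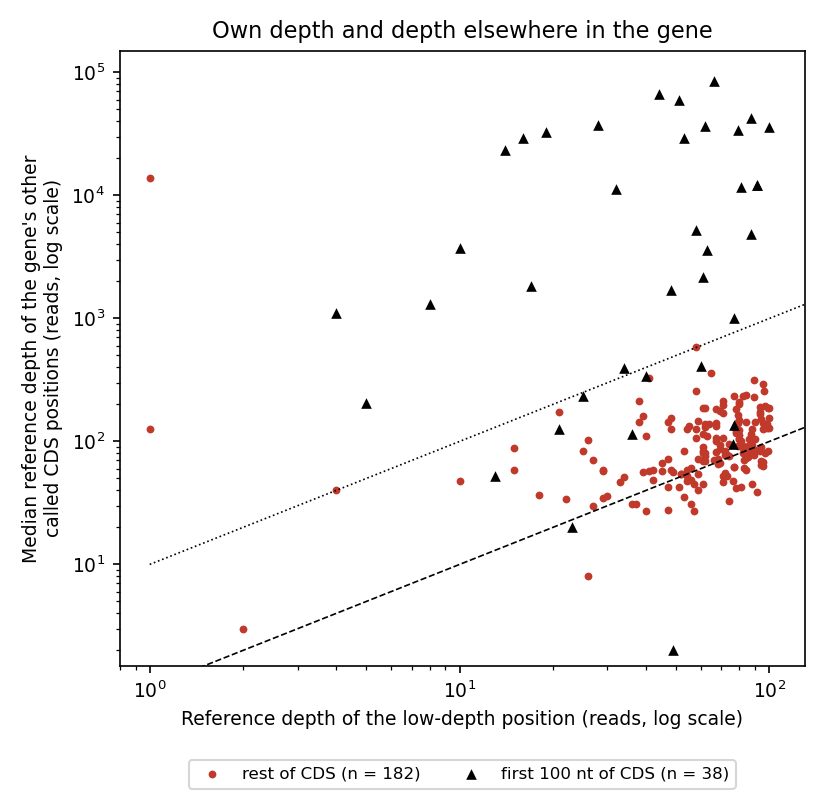
Reference depth of each low-depth position (horizontal axis, reads, log scale) against the median reference depth of the other called CDS positions of its gene (vertical axis, reads, log scale), for 220 positions in the first 100 nt of the CDS (38, black triangles) or beyond (182, red circles). The dashed line marks equal depths and the dotted line a gene 10 times deeper elsewhere; 28 of the 32 positions on or above the dotted line are triangles.

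In the first kind, 32 positions in 30 genes, the gene was at least 10 times deeper elsewhere. Median depth was 49.5 reads at these positions and 11510.5 at the other positions of the same genes. This division, like the bounds of 100 nt and 50 nt used below, was made after the values were seen. Of the 32, 28 lay in the first 100 nt of the CDS, 11 of them at the T of the start codon, and 26 lay within 50 nt of the annotated transcript start. The median distance to that start was 36.5 nt. The annotated products of 19 were ribosomal proteins. Among the rest were the eIF5A gene tif512 (2 positions), the initiation factor genes tif11 and int6, and tma19, whose product is the translationally controlled tumor protein. The chaperonin subunit gene cct8 and the adenosine kinase gene ado1 were there too. Reads were many at these positions, with a median of 54 (range 7 to 426), and 19 of the 32 had more PAR-CLIP reads than reference reads. The median conversion was 3.70%.

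The other 188 positions, in 152 genes, lay nearer to the depth of their genes, with a median depth of 68 at the position and 85.25 at the gene's other positions. Here 10 lay in the first 100 nt, 1 was at a start codon, 2 lay within 50 nt of the transcript start, and 0 were in genes of ribosomal proteins. The median was 11 reads (3 to 65) and 19.4% conversion, and 6 had more PAR-CLIP reads than reference reads. The bound of 10 cut through a continuous range, with a ratio of 10.16 in SPCC1259.08 inside it and 9.28 in csx1 outside. A gene with very deep coverage elsewhere had to fall in the first kind, so the counts of ribosomal products and the reads follow in part from the division and are description only.

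The depth and reads of the start-codon positions were as follows. In rps002, which encodes a small-subunit protein, 3 of 178 reads were converted over a reference depth of 14, while the gene's other called positions had a median depth of 23401. In tif512, 4 of 255 reads were converted over a depth of 16, against 29332 elsewhere in the gene. In rpl2802, of the large subunit (III 656626), 4 of 164 reads were converted over a depth of 44, against 66203. These 3 calls were in crosslinked replicate 1, and each position had more PAR-CLIP reads than reference reads.

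Crosslinked replicate 1 also held rpl4101, a large-subunit protein gene, with 4 of 167 reads over a depth of 34, and rpl3703 with 2 of 54 over 87. The gene int6, which encodes a subunit of the initiation factor eIF3, had 2 of 28 over 48, and the transporter gene SPCC320.08 had 2 of 27 over 77. Elsewhere in these genes the median depth was 395, 42948, 1706.5 and 135. The last of these is the only start-codon position whose gene was less than 10 times deeper elsewhere.

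In crosslinked replicate 2 the start-codon positions were in rpl8 (3 of 87 reads over a depth of 28), rpl4102 (2 of 27 over 32), ubi3 (2 of 25 over 66), cct8 (2 of 7 over 4) and ssn6 (2 of 14 over 5). The gene ubi3 encodes a fusion of ubiquitin with a small-subunit protein, and ssn6 encodes a transcriptional corepressor. Elsewhere in these genes the median depth was 37411, 11331, 84925, 1102 and 204.5. None of the 12 start-codon positions was called in the other crosslinked library or in the control.

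A few bases further in, the same genes and others like them held further positions. In tif512 at II 2759211, 24 nt into the CDS, 4 of 426 reads were converted over a depth of 53, the most reads of any low-depth position. The window of 31 bases around it occurs elsewhere in the genome with 1 mismatch, so its reads may be shared with that copy. In rps29 (II 516458, 17 nt in) 4 of 398 reads were converted over a depth of 51, against a median of 59598 at the gene's other positions. In rpl44 (I 911659, 20 nt in) 5 of 289 were converted over 62, against 36408 at its single other position. In rps1101 (I 2992671, 15 nt in) 3 of 190 were converted over 19, against 32725.

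Over all 245 positions, the 5′ end of the coding sequence held more than its share. The start-codon T made up 12 of the 245 low-depth positions (4.90%, Wilson 95% interval 2.82 to 8.36), 11 of the 3025 higher-depth positions (0.364%, 0.203 to 0.650) and 0.235% of all 2173551 T in coding sequences. Positions within 50 nt of the annotated transcript start made up 29 (11.8%, 8.37 to 16.5), against 19 (0.628%, 0.402 to 0.979) and 0.816%. The first 100 nt of the CDS held 45 (18.4%, 14.02 to 23.7), against 257 (8.50%, 7.55 to 9.54) and 6.87%. The first of 10 equal bins of the CDS held 19.1% of the low-depth positions of crosslinked replicate 1 and 28.6% of those of replicate 2, so both libraries lay above the 9.19% of the higher-depth positions. Beyond it the low-depth shares ran from 6.12% to 12.2% without an order. The difference was far smaller over all 7800 called CDS positions, most of them with 1 conversion. Of those in the first 100 nt, 237 of 634 had a depth of at most 100 (37.4%, 33.7 to 41.2), against 2280 of 7166 in the rest of the CDS (31.8%, 30.7 to 32.9), with median depths of 181.5 and 184.

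**Figure D3:**
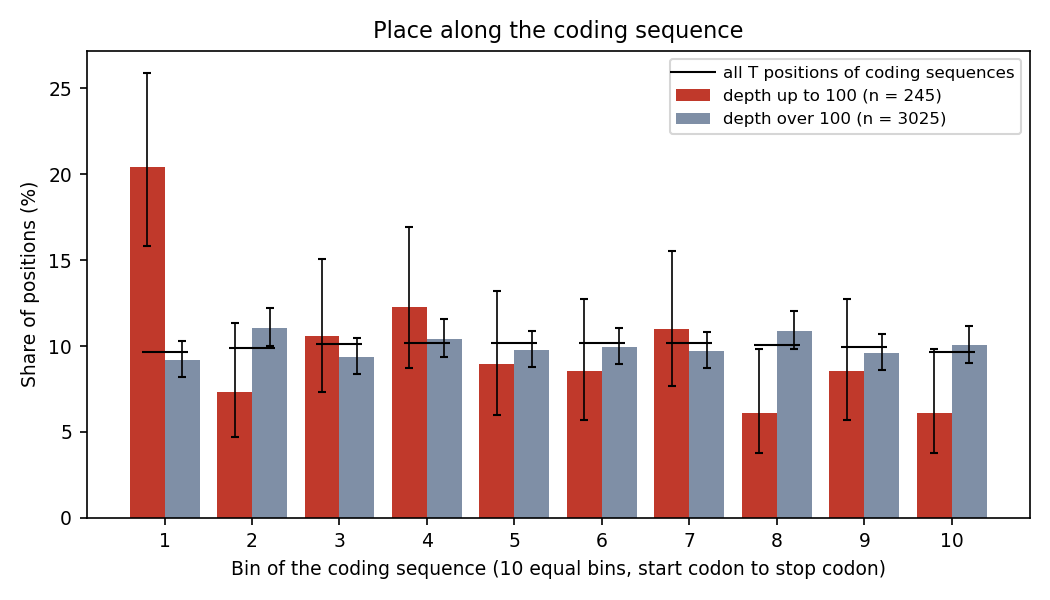
Share of positions (vertical axis, %) in each of 10 equal bins of the coding sequence (horizontal axis, start to stop codon) for the 245 low-depth (red) and 3025 higher-depth (grey) positions of both crosslinked libraries, with Wilson 95% intervals; black ticks are all T of coding sequences. The first bin holds 20.4% of the low-depth positions against 9.19% and 9.68%.

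In genes with deep reference coverage, low depth was frequent only among positions near the CDS start. Taking every CDS position with at least 2 conversions in a gene whose other called positions had a median depth of at least 1000, a bound set after the values were seen, 23 of 63 within 25 nt of the CDS start had a depth of at most 100 (36.5%, Wilson 95% interval 25.7 to 48.9). From 26 to 100 nt it was 3 of 127 (2.36%, 0.807 to 6.72). Beyond 100 nt it was 1 of 1313 (0.0762%, 0.0134 to 0.430), the position in tef101. The median depth in these 3 ranges was 316, 3741 and 3989 reads, while the median PAR-CLIP reads were 59, 63 and 96. The reads are bounded by the call, since positions with exactly 2 conversions never exceeded 68 reads in the crosslinked libraries, so they do not measure coverage and are not compared with the depth. What set the lower depth near the start was not tested.

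**Figure D4:**
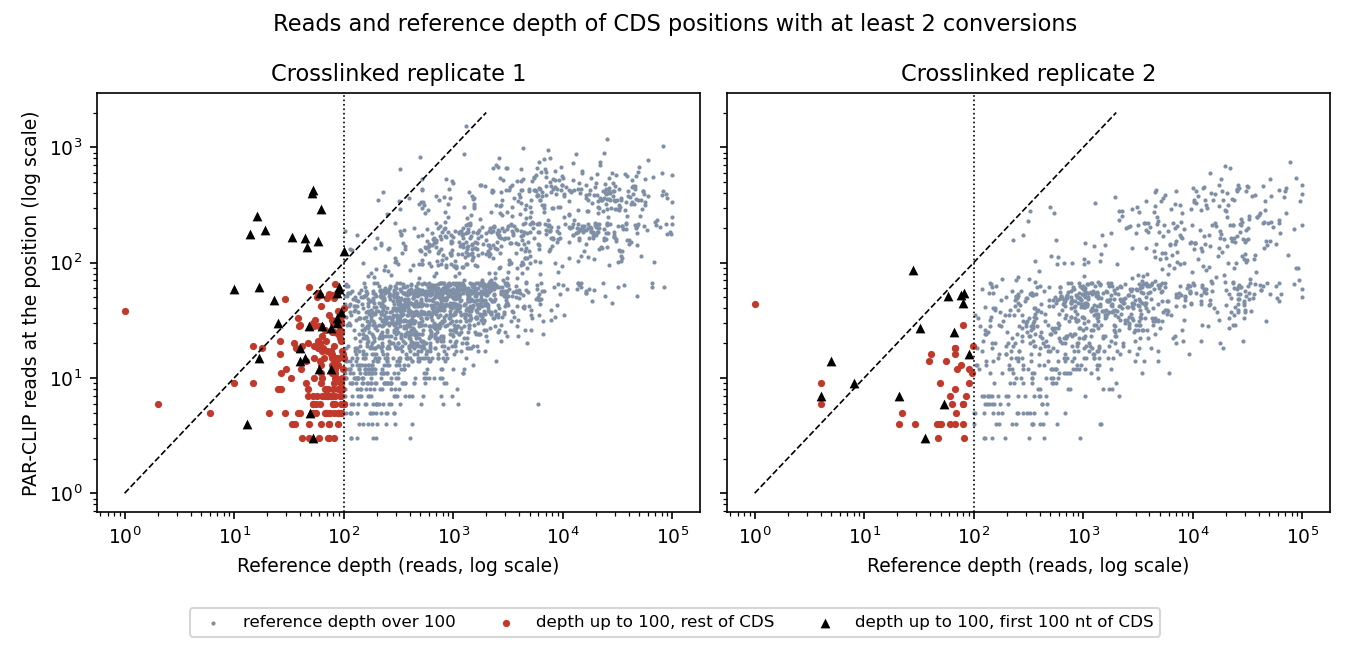
PAR-CLIP reads (vertical axis, log scale) against reference depth (horizontal axis, reads, log scale) of CDS positions with at least 2 conversions in each crosslinked library; the dotted line is the limit of 100 and the dashed line marks equal numbers. Of the 245 low-depth positions (red circles, and black triangles in the first 100 nt of the CDS) 27 lie above the dashed line, and 12 of the 3025 higher-depth positions (grey) do; the limit on depth favours the former, so the counts are description only.

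Exceptions to this pattern were few. The lowest depth, 1 read, occurred at 2 positions far from a start codon. In tef101, which encodes the elongation factor EF-1 alpha (III 268217), 3 of 44 reads were converted in crosslinked replicate 2, and its other positions had a median depth of 13803. The 31 bases around that position occur elsewhere in the genome without a mismatch, and its reads may be shared with other EF-1 alpha genes. In adg3, annotated as a beta-glucosidase (III 1951781, 193 nt into the CDS), 2 of 38 reads were converted in crosslinked replicate 1, against a depth of 127 elsewhere. The uncharacterized gene SPCC1259.08 held another of the 4 positions beyond 100 nt whose genes were at least 10 times deeper elsewhere.

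Near-identical copies and exon junctions were found at few of these positions. A copy of the 31-base window with up to 3 mismatches existed for 4 of 245 (1.63%, Wilson 95% interval 0.637 to 4.12), against 231 of 3025 (7.64%, 6.74 to 8.64), whereas exact copies existed for 3 (1.22%, 0.417 to 3.54) against 23 (0.760%, 0.507 to 1.14) and 2.42% of all T in coding sequences. An exon junction within 25 nt was found for 5 (2.04%, 0.875 to 4.69) against 78 (2.58%, 2.07 to 3.21) and 3.41%. These values were measured on the reference assembly and were not used by the rule. How reads of copied windows were counted was not stated, and the sets differ in their genes. The part of the depth limit in these shares was not tested.

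The bases directly beside the converted T took similar shares in both sets. G followed it in 35.5% of low-depth positions (29.8 to 41.7) and 40.0% of higher-depth positions (38.3 to 41.8), against 23.4% of all T in coding sequences. A preceded it in 41.2% (35.2 to 47.5) and 39.4% (37.7 to 41.2), against 27.6%. At both neighbours the 2 intervals overlapped, and both sets stood above the coding background. The T of a start codon always has A before it and G after it. This fixed the neighbours of 12 of the 245 low-depth positions and 11 of the 3025 higher-depth positions. Further out the sets could differ: A stood 3 bases before the T in 34.3% of low-depth positions (28.6 to 40.4), against 26.7% of higher-depth positions (25.2 to 28.3) and 28.6% of all T. RNase T1 cuts after G, and its part in the following G was not tested. The third codon position held 41.6% of low-depth positions (35.6 to 47.9), 50.9% of higher-depth positions (49.1 to 52.7) and 43.6% of all T, so the preference of the higher-depth positions for the third base was not seen here. The start-codon T lies at the second base and adds 12 positions there.

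The positions rarely recurred at the same base. Of the 199 in crosslinked replicate 1, 3 were called at the same base in replicate 2 (1.51%, Wilson 95% interval 0.514 to 4.34), against 36 of 2053 higher-depth positions (1.75%, 1.27 to 2.42). Of the 49 in replicate 2, 3 were called in replicate 1 (6.12%, 2.10 to 16.5), against 34 of 1006 (3.38%, 2.43 to 4.69). The intervals overlapped in both directions, and with 3 recurrent positions a difference in recurrence was not detectable. With exactly 2 conversions the shares were 1 of 183 against 0.699%, and 2 of 43 against 2.08%.

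The 3 recurrent positions were unlike each other. In mgs1, which encodes an ATPase of DNA replication (CDS position 32), 3 of 3 and 6 of 6 reads were converted over a depth of 53. It was the only called CDS position of the gene, and no other low-depth position was converted in every read. Among higher-depth positions, 1 in each replicate was converted in every read. The control had 0 calls at the mgs1 base, but positions under 3 reads are missing from it, so this may reflect too few reads. Whether the strain itself carries a C at this base was not tested. In rpl4302, of the large ribosomal subunit, 3 of 155 and 2 of 51 reads were converted over a depth of 58. In ubi5, a ubiquitin and small-subunit fusion like ubi3, 2 of 62 and 2 of 16 were converted over 91, and the base beside it, I 3108858, had 2 of 59 converted in replicate 1.

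Recurrence of the gene was lower than at higher depth over each library as a whole. A CDS call with at least 2 conversions in the same gene existed in replicate 2 for 41 of the 199 positions of replicate 1 (20.6%, 15.6 to 26.8), against 61.3% of higher-depth positions (59.2 to 63.4). In the other direction it existed for 28 of 49 (57.1%, 43.3 to 70.0), against 86.6% (84.3 to 88.5). Among positions with exactly 2 conversions the shares were 16.9% against 46.0%, and 55.8% against 83.6%. The intervals did not overlap in these 4 comparisons. With under 20 reads the shares were 9.23% against 17.3%, where the intervals overlapped, and 47.5% against 69.8%. With at least 20 reads they were 42.0% against 69.7%, and in the other direction 9 of 9 against 90.8%. Counting calls of any kind, among them those of 1 read in 3, the shares were 71.9% against 74.96% and 73.5% against 88.0%. A gene with thin coverage offers fewer reads in either library, and the part of coverage in this difference was not tested.

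**Figure D5:**
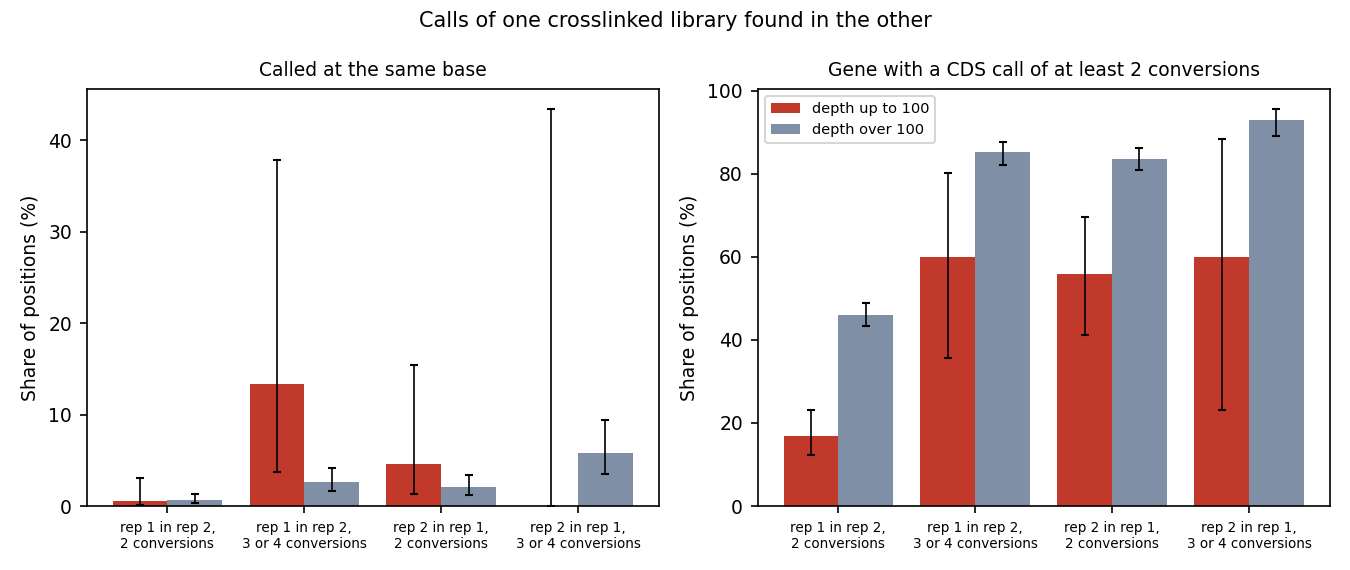
Share of low-depth (red) and higher-depth (grey) positions of 1 crosslinked library (vertical axis, %) that were called in the other at the same base (left) or whose gene held a CDS call of at least 2 conversions there (right), by number of conversions, with Wilson 95% intervals. At the same base the intervals overlap, and for genes at 2 conversions the red bars stand at 16.9% and 55.8% against 46.0% and 83.6%.

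By gene, 11 of the 207 held a low-depth position in both libraries. That is 6.43% of the 171 genes of replicate 1 and 23.4% of the 47 genes of replicate 2. Of genes with a higher-depth position, 343 held one in both, 39.3% of the 872 of replicate 1 and 75.4% of the 455 of replicate 2. Besides mgs1, rpl4302 and ubi5, the 11 genes with low-depth positions in both were ags1, mdn1, SPAC2H10.01, met10, mod5, pan1, rsc9 and ubr11. Their products include midasin, which acts in ribosome assembly (mdn1), the actin patch protein Pan1, the RSC chromatin remodelling subunit Rsc9 and a ubiquitin ligase (ubr11). In these 8 genes the positions of the replicates lay at different bases. The closest pair was in SPAC2H10.01, which encodes a transcription factor, with I 5274395 in replicate 2 (2 of 18 reads over a depth of 67) and I 5274402 in replicate 1 (2 of 49 over 71).

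The control shared 1 of the 199 low-depth positions of crosslinked replicate 1 (0.503%) and 0 of the 49 of replicate 2. Of the higher-depth positions it shared 5 of 2053 (0.244%) and 2 of 1006 (0.199%). The shared low-depth position lay in ync13, a regulator of vesicle traffic at the cell surface (I 5283660). There 2 of 5 reads were converted in crosslinked replicate 1, over a depth of 69. The control had 2 of 3 reads converted there, and replicate 2 had 0 calls at that base. The control's other 3 low-depth CDS positions were in the magnesium transporter gene mrs2 (5 of 8 reads, depth 57), in SPBPB7E8.02 (2 of 5, depth 68) and in vps1302 (2 of 5, depth 77). SPBPB7E8.02 also held 2 low-depth positions in crosslinked replicate 1, at other bases. The control lists 0 CDS calls of 1 read in 3, unlike the crosslinked libraries, so its calls were not made over the same range of reads.

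Genes of chromatin and transcription held several of the positions with few reads. Of 47 genes in a list of chromatin and silencing genes, 6 held a low-depth position (12.8%, against 4.05% of all coding genes) and 6 held a higher-depth one (12.8%, against 19.2%). The median CDS of this list was 2505 nt, against 1137 nt for all coding genes, so its genes offered more coding bases each. The gene clr5 (chromosome I, 5428356 to 5431523) had 3 positions in crosslinked replicate 2, with 2 of 14, 2 of 14 and 2 of 9 reads converted over depths of 56, 39 and 49. It had 1 more called position, at a higher depth, and 0 calls in replicate 1 or the control, so the reading rests on 1 library. The SWI/SNF remodeller gene snf22 (III 2173920) had 4 of 16 reads converted over a depth of 76, and ino80, which encodes another remodelling ATPase, had 2 of 6 and 2 of 15 over 80 and 86. All 3 positions were in replicate 1.

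Sorting all products by words in their annotation, with word classes chosen after the values were seen, put 26 of the 207 genes (12.6%) in transcription and chromatin, against 4.17% of genes with higher-depth positions and 6.63% of all coding genes. Kinases and phosphatases made up 20 of the 207 (9.66%, against 5.996% and 6.16%), and RNA processing and ribosome biogenesis 21 (10.1%, against 4.88% and 6.10%). Ribosomal proteins made up 19 (9.18%, against 13.3% and 4.36%). Transporters and pumps made up 10 (4.83%, against 3.56% and 4.38%) and the ubiquitin system 8 (3.86%, against 1.73% and 2.58%). GTPase regulators made up 5 (2.42%, against 1.52% and 2.05%) and uncharacterized products 3 (1.45%, against 2.13% and 7.33%). The median CDS was 1368 nt in the class of transcription and chromatin, 459 nt in ribosomal proteins and 477 nt in uncharacterized products. The gene with most positions was esc1 (chromosome I, 1153580 to 1156804), which encodes a transcription factor, with 4 positions in crosslinked replicate 1. There 2 of 48, 2 of 50, 2 of 38 and 2 of 14 reads were converted over depths of 29, 57, 88 and 45. Its 4 positions were its only called CDS positions, and replicate 2 and the control held none. In klf1, a transcription factor gene, 3 of 4 reads were converted over a depth of 50 at I 5457148 in replicate 2. In reb1, bdf1, swr1, tra1 and rsc7, which encode a termination factor and subunits of the Swr1, SAGA and RSC complexes, 2 conversions were read at each position, in replicate 1.

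Cell wall genes, whose list had a median CDS of 1866 nt against 1137 nt for all coding genes, also held positions. Of 42 in the list, 4 held a low-depth position (9.52%, against 4.05% of all coding genes), with 15 at higher depth (35.7%, against 19.2%). The glucan synthase gene bgs3 had 3 in crosslinked replicate 1, with 2 of 19, 2 of 6 and 3 of 22 reads converted over depths of 82, 99 and 93, beside 1 higher-depth position in replicate 2. The alpha-glucan synthase gene ags1 had 2 of 40 and 2 of 42 in replicate 1 and 2 of 19 in replicate 2, over depths of 100, 62 and 99. With 11 and 4 higher-depth positions in the replicates, ags1 was a gene near the limit, not a thin one. Outside this list, the gene tea1, whose product marks the cell ends, had 2 of 5, 2 of 11 and 2 of 3 reads converted in replicate 1. Its anchor gene mod5 had 2 of 11 in replicate 1 and 2 of 7 in replicate 2.

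In other lists the counts were small. For comparison, 4.05% of all coding genes held a low-depth position and 19.2% a higher-depth one. Of 138 ribosomal protein genes 17 held a low-depth position (12.3%) and 124 a higher-depth one (89.9%). Of 49 RNA processing and decay genes 5 did (10.2%), among them brr2, cft1 and not1, which encode a spliceosome helicase, a cleavage and polyadenylation factor and the scaffold of the CCR4-NOT deadenylase, with 2 of 10, 2 of 7 and 2 of 25 reads converted. Transporters held 4 of 45 (8.89%), among them the pump genes abc1, bfr1 and pmd1. Genes of amino acid and nucleotide synthesis held 4 of 69 (5.80%), among them met10, met6 and arg4. Those of lipid and sterol synthesis held 3 of 34 (8.82%), erg1, css1 and hmg1. In met6, a methionine synthesis gene, 3 of 16 reads were converted over a depth of 41 in replicate 2.

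Translation factors held 2 of 24 (8.33%, tef101 and tif11) and signalling genes 2 of 39 (5.13%, tor2 and gad8, kinases of the TOR pathway). Cytoskeleton and traffic genes held 2 of 47 (4.26%, myo51 and pan1). Chaperones (cct8, 1 of 26, 3.85%), stress response (gst2, 1 of 27, 3.70%) and the cell cycle (wee1, 1 of 56, 1.79%) held 1 gene each. So did meiosis (ste11, 1 of 59, 1.69%), phosphate response (pho1, 1 of 10, 10.0%) and thiamine and iron (thi5, 1 of 22, 4.55%). In pho1, an acid phosphatase gene, 2 of 52 reads were converted over a depth of 78 in replicate 1. Glycolysis (0 of 16), mitochondrial respiration and import (0 of 53) and the Tf2 retrotransposons (0 of 13) held none. At higher depth glycolysis held 14 of its 16 genes and the mitochondrial list 26 of its 53, and the Tf2 elements again held 0. Since the counts follow both how deep a gene was covered and how it was chosen, nothing is read from them about binding. The median CDS of the lists ran from 447 nt (ribosomal proteins) to 4002 nt (Tf2 elements), against 1137 nt for all coding genes. The part of CDS length in these counts was not tested.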

How the data were processed

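PAR-CLIP data came as 1 table per library. The authors' deposited counts are the reads with a conversion and the reads at each position, a reading made from the values, since the headers give single letters. The authors' deposited p-value belongs to each call and is set by these counts alone within a library. The authors' deposited occupancy is a ratio, conversions divided by a whole number (the quotient lay within 6.8e-08 of one in the crosslinked tables) that was the same at all 318 positions called in both crosslinked libraries. It is named reference depth here, and which library it counts was not given in the labels. Per the submitters' processing notes, Bowtie 1.1.1, SAMtools and build ASM294v2 were used. The site caller with its thresholds, and how multiply mapped reads were treated, were not stated in the labels or headers.

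The tables hold 6661, 4824 and 135 positions with 613498, 273082 and 15545 reads (crosslinked 1, crosslinked 2, control). Uncalled positions and those under 3 reads are missing, so total depth cannot be given. Positions were placed with Python 3.11.15 (numpy 2.4.6, pandas 2.3.3) on the RefSeq genome and annotation of a later version of the assembly. All 6560, 4742 and 127 nuclear positions were a T there on their strand. The mitochondrion was not used. For each position the distance to the start codon, transcript start and exon junctions, the neighbouring bases, and the fewest mismatches of its 31-base window elsewhere were computed. Printed sequences are from RefSeq (ASM294v3).

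No test was made: the rule used the measured values, and sets of positions within a library are not replicates. Shares carry Wilson 95% intervals. Reads had no molecular identifiers, so the intervals reflect counting error alone. Whether the replicates were separate cultures is not stated, so an SD of 2 values may be technical. Positions of 1 gene share their source and are not replicates. The positions, the gene lists (674 of 702 symbols matched) and the comparisons were chosen with earlier results of these data known. Named genes were those recurring in both libraries, those with most positions or conversions, those at the lowest depths or at the limit, those in the control, and up to 3 per list. Other names were chosen after their values were seen. The 6 RNA-seq samples (3 wild type, 3 seb1-1) were not analysed here. Alternatives changed the depth limit, the minimum of conversions or reads, and left out control positions, fully converted positions, copied windows or a replicate. The scripts were tested on simulated positions.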

Additional observations from a re-analysis of the deposited data

How the results depend on the processing

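Of 68 alternative values, 41 stayed within 1.5 times the count or within 1 SD. The SD is that of the 2 crosslinked replicates, so leaving 1 of them out cannot move a mean beyond it. For means, those alternatives could only count as unmoved and say nothing about stability. The size of the set followed its limits. With a depth of at most 50, at most 200, at least 3 conversions or at least 20 reads, the 245 positions became 74, 569, 21 and 77, the 207 genes 70, 417, 20 and 69, and the mean share of 6.74% became 2.15%, 15.9%, 2.06% and 2.48%. With 1 crosslinked replicate left out, positions ranged from 49 to 199, genes from 47 to 171, the share from 4.64% to 8.84%, the median conversion from 14.3% to 22.2% (higher depth 4.08% to 4.55%) and the share in the first 10% of the CDS from 19.1% to 28.6%. At least 20 reads lowered the median conversion from 18.3% to 5.0%, and that at higher depth from 4.31% to 3.75%. At least 3 conversions took the latter to 1.84%.

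The mean share in the first 10% of the CDS, 23.8%, became 37.6% at a depth of at most 50, 16.8% at 200, 54.2% with 3 conversions and 51.4% with 20 reads, alternatives added after the data were seen. The 3 recurrent positions became 0, 5, 1 and 1 under the same 4 limits and 2 without fully converted positions. The mean recurrence of 3.81% became 0.0% at a depth of at most 50 and 14.6% with 3 conversions. Leaving out control positions or copied windows moved no value beyond these bounds. No paired analysis was possible because the crosslinked and control libraries share fewer than 2 replicate numbers and no result came from a test. Reads of 3 to 20 at most positions limit every percentage given for a single one.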
